A study of Mus musculus with 15 samples.

Results

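The acetylation of histone H3 at lysine 27 (H3K27ac) was followed at 837 intergenic regions that were called in H3.3 conditional knockout (cKO) macrophages and not in wild-type (WT) macrophages of the mouse. The 4 H3K27ac region lists, 2 per genotype, were merged on chromosomes 1 to 19 and X into 89773 regions. A region was kept when it was called in both cKO libraries and in neither WT library, with a midpoint outside every protein-coding gene body and more than 1 kb from any protein-coding transcription start site (TSS). The regions were therefore chosen by the H3K27ac calls of these same 4 libraries, and their presence in cKO and absence in WT is a description and not a finding. Of all merged regions, 2995 had this pattern (3.34%), and of the 16994 intergenic ones 837 had it (4.93%). H3.3, H3K36me3, the nearest genes and the DNA sequence took no part in the choice.

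The cells were bone marrow-derived macrophages (BMDMs), grown from the marrow of young adult C57BL/6 mice in medium conditioned by L929 cells. WT cells carried floxed H3f3a and H3f3b, the genes that encode the histone variant H3.3, without Cre. The cKO cells carried the same floxed alleles together with Cre at Lyz2 (LysM cre/cre), which is active in monocytes, macrophages and granulocytes, so both genotypes share the floxed alleles and only the cKO cells carry the Cre insertion. A further group came from mice with an HA tag on H3f3b and an intact H3.3 supply. There the antibody to HA marks where H3.3 made from H3f3b sits. The method was CUT&RUN, in which an antibody tethers a nuclease to chromatin and the released DNA is sequenced, and each group had 2 biological replicates. The labels do not tie the replicates to animals, so p-values measure the spread between these samples.

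Active enhancers lie outside gene starts, bind transcription factors and carry H3K27ac on the flanking nucleosomes, and the mark is placed by the acetyltransferases p300 and CBP. In macrophages, PU.1 and C/EBP factors bind much of the enhancer repertoire, and AP-1, NF-kB and interferon-responsive factors join them when the cells are stimulated. H3.3 is deposited at enhancers, promoters and gene bodies outside of DNA replication, and H3K36me3 is laid down along transcribed gene bodies. The nearest gene is used below only as a label of position, since an enhancer need not act on its nearest gene.

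The H3K27ac libraries held between 16444864 and 29988098 tags, and the cKO lists were shorter, with 35018 and 41444 regions against 61764 and 54630 in WT. Tags inside called regions made up 11.8% and 17.8% of the cKO libraries and 24.1% and 21.5% of the WT libraries. Among the H3K36me3 libraries, cKO 1 stood apart, with 19.3% of its tags in regions against 46.5% to 50.2% in the others. WT libraries were called against WT control IgG and cKO libraries against cKO control IgG, so the genotype and the control cannot be told apart. Macrophage identity was checked at gene starts: H3K27ac regions lay within 1 kb of a TSS of 9 and 8 of 10 macrophage markers in WT and of 9 and 9 in cKO. All 6 fibroblast markers and all 5 mast cell and erythroid markers were without a region in every library. Of the 6 neutrophil markers none had a region in WT, Elane had one in both cKO libraries and Camp in cKO 2, while S100a8, S100a9, Ly6g and Mpo had none. Of the 5 lymphoid markers, Ms4a1 had a region in all 4 libraries and Cd3d in both cKO libraries only. The part of these differences in the results was not tested. In bulk samples, fewer cells with a mark and less of the mark per cell cannot be told apart.

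Sequences of 5 regions are shown first, to give the DNA under the call. Each is the 300 bp at the middle of the part called in both cKO libraries, read from the plus strand of the RefSeq genome of GRCm38 (mm10), 5′ to 3′, and all lie outside protein-coding genes. The Oas3 sequence lies inside the antisense gene Gm43069, and the others in no annotated gene. Cxcl2 is shown as the region with the greatest length called in both cKO libraries, Mdm1, Hif1a and Pde7b as long regions with matches to macrophage motifs, and Oas3 as a region beside an interferon-induced gene; these were picked after their matches were seen. Capitals mark matches, on either strand, to AP-1 (TGANTCA), PU.1 (GAGGAAGT), a stretch of the interferon-stimulated response element, ISRE (GAAANNGAA), C/EBP (TTGCNNAA), the cyclic AMP response element (TGACGTCA) or NF-kB (GGANTTTCC).
Cxcl2 member, chr5:90897905-90898204: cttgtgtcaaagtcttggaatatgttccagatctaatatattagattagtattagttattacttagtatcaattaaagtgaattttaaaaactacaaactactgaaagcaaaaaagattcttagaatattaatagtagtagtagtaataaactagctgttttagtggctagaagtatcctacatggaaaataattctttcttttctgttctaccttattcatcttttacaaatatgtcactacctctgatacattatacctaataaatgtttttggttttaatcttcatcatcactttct
Mdm1 member, chr10:118101988-118102287: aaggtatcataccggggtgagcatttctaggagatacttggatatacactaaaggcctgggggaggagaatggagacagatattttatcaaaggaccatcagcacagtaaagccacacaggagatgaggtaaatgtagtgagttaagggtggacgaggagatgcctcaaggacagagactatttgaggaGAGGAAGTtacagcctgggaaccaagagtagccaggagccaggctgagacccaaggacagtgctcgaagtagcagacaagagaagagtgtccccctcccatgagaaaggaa
Hif1a member, chr12:73779425-73779724: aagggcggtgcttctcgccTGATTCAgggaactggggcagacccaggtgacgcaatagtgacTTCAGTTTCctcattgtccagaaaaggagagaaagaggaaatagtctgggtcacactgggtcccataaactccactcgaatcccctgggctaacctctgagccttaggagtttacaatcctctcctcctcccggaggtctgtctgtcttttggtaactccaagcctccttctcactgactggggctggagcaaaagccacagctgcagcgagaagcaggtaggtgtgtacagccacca
Pde7b member, chr10:20835091-20835390: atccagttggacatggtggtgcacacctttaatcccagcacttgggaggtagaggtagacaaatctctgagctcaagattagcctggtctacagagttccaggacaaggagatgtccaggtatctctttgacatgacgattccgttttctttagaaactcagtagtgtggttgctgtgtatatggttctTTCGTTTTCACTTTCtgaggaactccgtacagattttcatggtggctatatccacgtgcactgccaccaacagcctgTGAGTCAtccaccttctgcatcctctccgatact
Oas3 member, chr5:120779673-120779972: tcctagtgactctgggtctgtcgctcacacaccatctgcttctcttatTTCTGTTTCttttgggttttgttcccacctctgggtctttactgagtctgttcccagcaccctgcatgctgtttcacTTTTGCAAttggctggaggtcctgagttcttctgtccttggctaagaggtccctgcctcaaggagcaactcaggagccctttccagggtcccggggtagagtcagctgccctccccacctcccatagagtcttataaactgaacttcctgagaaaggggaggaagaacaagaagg

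The Cxcl2 sequence held no match and was AT-rich, with 26.3% G and C. The Mdm1 sequence held a PU.1 match, and the Hif1a sequence an AP-1 and an ISRE match. In the Pde7b sequence 2 ISRE matches overlapped and an AP-1 match followed. The Oas3 sequence held an ISRE and a C/EBP match. A match is a description of the letters and does not show binding.

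The regions were short. Their merged width had a median of 877 bp, from 501 to 5410 bp, and 514 of the 837 (61.4%) measured at most 1000 bp. The shortest H3K27ac region that the caller returned was 501 bp. WT-only intergenic regions, called in both WT and neither cKO library, had a median of 941 bp (n = 2302), and intergenic regions called in all 4 libraries, referred to as shared, had a median of 2511 bp (n = 3404). The length called was greater in cKO 2, with a median of 785 bp, than in cKO 1, with 633 bp. It was longer in cKO 2 at 513 regions and longer in cKO 1 at 173. At 369 regions cKO 1 held only a call of the minimum size. Both libraries overlapped at every region, over a median of 501 bp. In total the 837 regions spanned 932 kb.

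**Figure D1:**
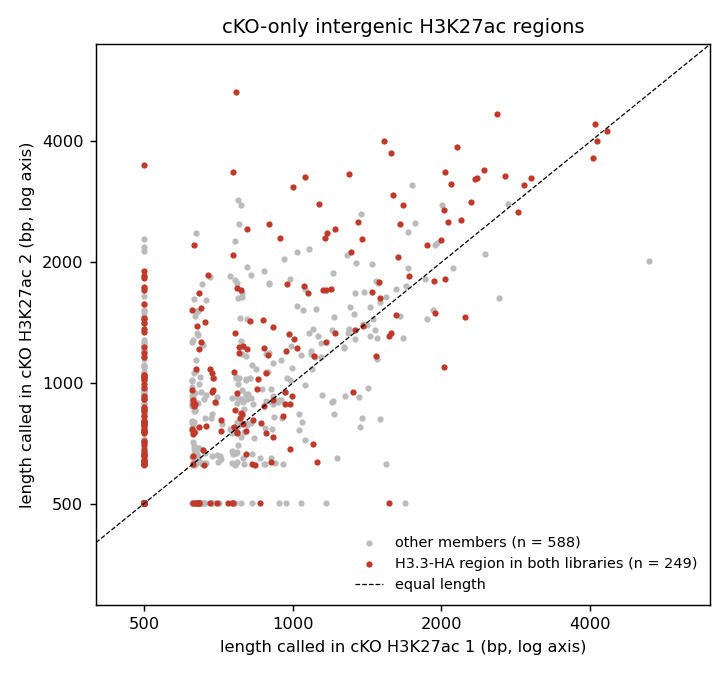
Length called in cKO H3K27ac 1 (horizontal, bp) and cKO H3K27ac 2 (vertical, bp) on log axes, 1 point for each of the 837 cKO-only intergenic regions; red points also had an H3.3-HA region in both H3.3-HA libraries. More points lie above the dashed line of equal length (513) than below it (173), and the column of points at the left is the minimum call of cKO 1.

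The region with the greatest length called in both cKO libraries lay between Cxcl1 and Cxcl2, genes of neutrophil-attracting chemokines, at chr5:90895935-90900254. It covered 4320 bp in cKO 1 and 4239 bp in cKO 2, and the nearest WT region was 1669 bp away. A further region of 646 bp in cKO 1 and 501 bp in cKO 2 lay 2427 bp from the Cxcl2 TSS, and these were the only 2 intergenic regions of any library assigned to Cxcl2. An H3K27ac region also lay within 1 kb of the Cxcl2 TSS in all 4 libraries, but not at the same place: it ended upstream of the TSS in both cKO libraries, crossed it in WT 2 and lay downstream of it in WT 1.

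Next by this measure was chr10:118099912-118104343, upstream of Mdm1, with 4097 bp in cKO 1 and 4432 bp in cKO 2. The region upstream of B4galt5, which encodes a galactosyltransferase of lactosylceramide synthesis, had 4134 and 4020 bp. The region upstream of Trdmt1, an RNA methyltransferase gene, had 4046 and 3629 bp. Both cKO libraries called these regions over most of their length, which their choice by the length called in both favours. The other regions among the 10 longest in both libraries were assigned to Slc7a15, Syk, Hif1a, Il20ra, Pde7b and Irf2bp2, with a length called in both libraries of 2570 to 2954 bp. Syk is the kinase that signals below Fc receptors and Dectin-1, and its region at chr13:52571107-52574222 had 2943 bp in cKO 1 and 3116 bp in cKO 2. Hif1a encodes the oxygen-regulated factor of glycolytic macrophages, and its region lay 121840 bp upstream with 2721 and 2801 bp. The Irf2bp2 region was uneven, with 2594 bp in cKO 1 and 4672 bp in cKO 2.

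Most of the regions had a WT call not far away. The gap to the nearest WT region had a median of 5230 bp, with quartiles of 1536 and 16713 bp. A WT region lay within 1 kb of 144 regions (17.2%), within 5 kb of 407 (48.6%) and within 50 kb of 759 (90.7%). The smallest gap was 2 bp, beside a region of 1103 and 1171 bp near Gm45261. Just outside the rule stood 725 intergenic regions called in both cKO and exactly 1 WT library, 424 of them with WT 1 and 301 with WT 2. On the other side of the TSS limit, the closest member lay 1038 bp from the TSS of Mcemp1 with 654 and 1534 bp called, and the farthest cKO-only region inside the limit lay 908 bp from the TSS of Rbpms with 501 and 501 bp. When all 4 lists were first reduced to their widest regions, as many as the shortest list held, the intergenic regions came to 1207 cKO-only and 1220 WT-only, against 837 and 2302 with the full lists. The number of cKO-only regions also rested on each library: it was 1278 without WT 1, 1152 without WT 2, 2935 without cKO 1 and 2065 without cKO 2.

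The nearest TSS was at a median distance of 23751 bp, from 1038 to 732248 bp, against 35936 bp for WT-only, 29979 bp for shared and 33321 bp for all intergenic regions. A TSS lay within 10 kb of 207 regions (24.7%). The regions lay upstream of the nearest TSS in 572 of 837 cases (68.3%, Wilson 95% interval 65.1 to 71.4), against 62.6% of WT-only and 68.6% of shared regions. Such intervals cover counting error only, and neighbouring regions are not independent. The share of intergenic regions that were cKO-only ran from 2.33% on chromosome 14 to 6.97% on chromosome 19. Another member lay within 10 kb of 107 regions (12.8%) and within 50 kb of 222 (26.5%). No member lay within 100 kb of Lyz2 or H3f3b, and 1 lay within 100 kb of H3f3a.

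The midpoints of 167 regions (20.0%) fell inside a gene annotated as non-coding or as a pseudogene, most often a lincRNA (87 regions) or an antisense transcript (35 regions). Outside all annotated genes lay 670 of the 837 regions, 1916 of 2302 WT-only and 13975 of 16994 intergenic regions. Of the intergenic regions outside all annotated genes 4.79% were cKO-only, near the 4.93% of all intergenic regions. Gm14005, the locus of the myeloid long non-coding RNA Morrbid next to Bcl2l11, held 6 of the 167, more than any other non-coding gene. It runs from 128178319 to 128502765 on chromosome 2 and contained 39 intergenic merged regions in all, of which 2 were WT-only and 13 shared. Gm13986, upstream of Thbs1, held 4. Mx2 held 3: it is an interferon-induced antiviral gene of chromosome 16 (97535308 to 97560900) that the annotation lists as a polymorphic pseudogene. Those 3 regions, of 510 to 795 bp, were assigned to the TSS of Fam3b, yet all lay in the Mx2 body and all overlapped H3K36me3 regions in each of the 4 H3K36me3 libraries.

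The 837 regions were assigned to 706 protein-coding genes, 604 of which had 1 region and 22 of which had 3 or more. Irf2bp2, a corepressor gene that acts with IRF2 and on macrophage inflammation, had the most, with 8 regions. They stretched from 51782 bp downstream to 126033 bp upstream of its TSS. The longest called lengths were 5306 bp in cKO 2, where cKO 1 had only 767 bp, and 4672 bp against 2594 bp. The 6 others were called over 501 to 1369 bp in cKO 1 and 501 to 779 bp in cKO 2. Of 27 intergenic regions nearest to Irf2bp2, 1 was WT-only and 4 were shared. Within 1 kb of the TSS an H3K27ac region was called in the cKO libraries alone. This rests on the limit, because a region of each WT library lay just beyond 1 kb, inside the span of the cKO regions, and WT 2 also had regions in the gene body. H3K36me3 regions covered 68.4% and 70.5% of the gene body in cKO 1 and 2 and 0% in both WT libraries.

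**Figure D2:**
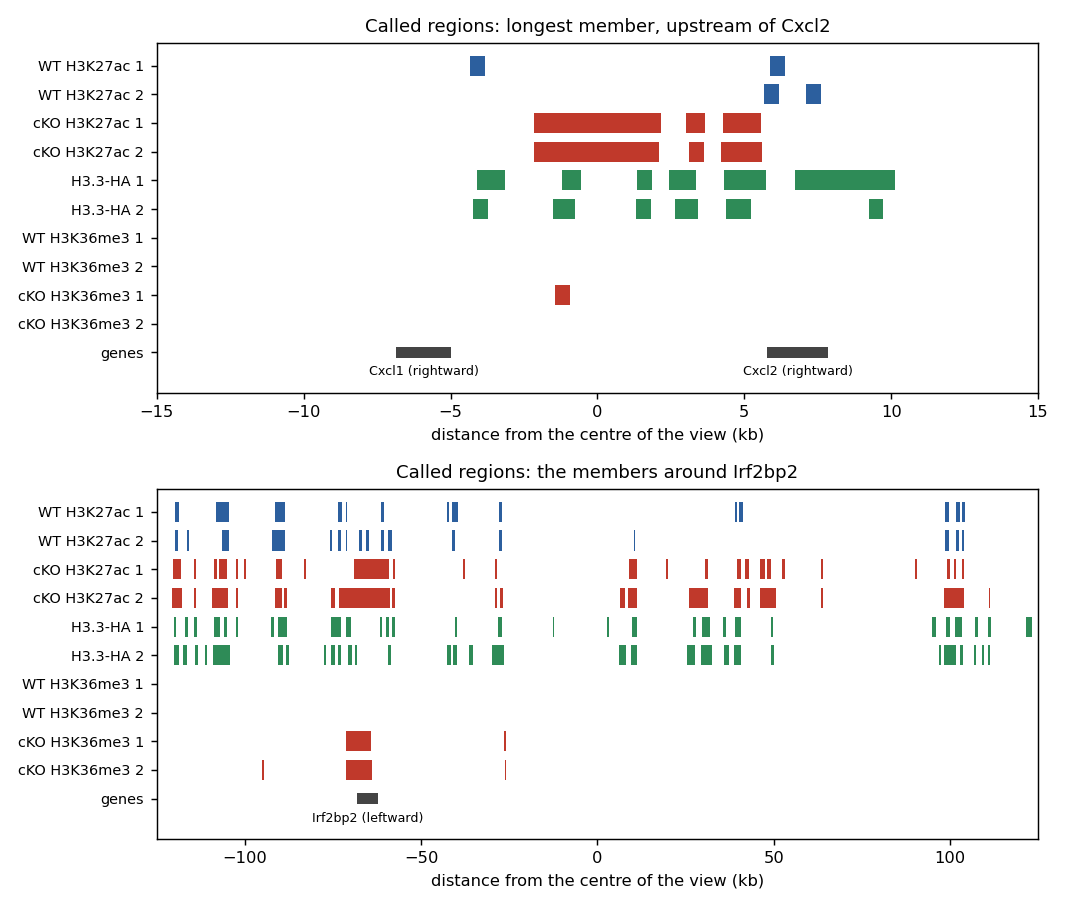
Called regions of the 10 libraries around the cKO-only intergenic region near Cxcl2 (top) and around Irf2bp2 (bottom), with distance from the centre of the view in kb on the horizontal axis and 1 row per library; blue is WT, red cKO and green H3.3-HA, and grey bars are protein-coding genes with their direction. At the top the 4320 and 4239 bp cKO regions fill a gap in the WT rows, and at the bottom H3K36me3 covers Irf2bp2 in the 2 cKO rows only.

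Cited2, a transcriptional coregulator gene, and Thbs1, the gene of the matrix protein thrombospondin, had 4 regions each. Those of Cited2 lay 200784 to 519007 bp upstream, in a gene-poor stretch that also held 11 WT-only and 15 shared regions, so that regions of every class were frequent there. Those of Thbs1 lay 122570 to 174767 bp upstream, all inside Gm13986. H3K36me3 was higher in WT over the Thbs1 body, where it covered 86.6% and 94.7% in WT and 29.7% and 51.9% in cKO. In the study's RNA lists, given below, Thbs1 was nevertheless higher in cKO on day 8. The other 19 genes had 3 regions each and included Ccnd2, the gene of the cell cycle regulator cyclin D2, Cd47, the gene of the "do not eat me" ligand, Slc7a11, the cystine transporter gene, and Inhba, which encodes a subunit of activin. At Ccnd2, cKO 1 called 501 bp at each region and cKO 2 501 to 640 bp. No WT-only or shared intergenic region was assigned to Ccnd2. At its promoter an H3K27ac region was called in the cKO libraries and not in WT. Its body had H3K36me3 over 9.22% and 46.8% in cKO and 0% in WT.

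The remaining genes with 3 regions were 1700016C15Rik, AA467197, Bcl2l11, Chd7, Eps8l3, Fam3b, Gadd45b, Lbh, Lbr, Plk2, Pmaip1, Smndc1, Spdye4c, Trps1 and Tubd1. The regions of Spdye4c and Bcl2l11 all fell inside Gm14005, so the 6 form a single stretch of chromosome 2. Trps1 and Chd7 encode chromatin and transcription regulators, and their regions reached 377660 and 154658 bp from the TSS. At Lbr, which encodes the lamin B receptor, and at Smndc1, the gene bodies were covered by H3K36me3 over 66.2% to 91.5% in every library, with no separation of the genotypes.

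Genes of the DNA damage and p53 response were nearest to 16 of the 837 regions (1.91%, 1.18 to 3.08), against 0.738% of WT-only, 0.852% of shared and 0.677% of all intergenic regions. This list held 38 genes, and 8 of them were reached: Bcl2l11, Gadd45b, Plk2 and Pmaip1 with 3 regions each, and Atf3, Gadd45a, Gadd45g and Sesn2 with 1 each. In the study's RNA lists, given below, Bcl2l11, Plk2, Pmaip1 and Gadd45g were also higher in cKO on day 7. Their regions are counted again there, so the results for the DNA damage list and the RNA list are not independent. Counted as distinct genes, the 8 made up 1.13% (0.575 to 2.22) of the 706 nearest genes. Genes of this list made up 0.562% of the 1600 nearest genes of WT-only regions. For shared and all intergenic regions they made up 0.585% and 0.363% of the nearest genes. The interval of the cKO-only share held the share of shared regions. The share of members was smaller under some other choices. It was 0.954% without cKO 1 (WT-only 0.779%) and 1.11% without cKO 2 (WT-only 0.590%). With called regions of at least 1 kb it was 1.08% (WT-only 0.598%), and with lists of equal length 1.24% (WT-only 0.656%). Over all other choices of regions it ran from 0.954% to 1.94%, against 0.486% to 0.795% of WT-only regions.

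Bcl2l11 (BIM) and Pmaip1 (NOXA) encode BH3-only proteins that start apoptosis. The most extended Bcl2l11 region, 78109 bp downstream of the TSS, had 1854 bp in cKO 1 and 1812 bp in cKO 2, while the other 2 had 501 bp in cKO 1 and 630 and 628 bp in cKO 2. The 3 Pmaip1 regions had 501, 1345 and 1162 bp in cKO 1 and 651, 1994 and 2293 bp in cKO 2, within 18340 bp of the TSS. The promoters of both genes had an H3K27ac region in both cKO and neither WT library. H3K36me3 did not separate the genotypes at either gene body. At Bcl2l11 it covered 80.1% and 84.4% in WT and 57.5% and 86.1% in cKO. At Pmaip1 it covered 48.3% and 51.5% in WT and 0% and 50.5% in cKO, the 0% being that of the weak cKO 1 library.

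Plk2, the gene of a p53-induced kinase, had regions of 786, 501 and 912 bp in cKO 1 and 501, 501 and 905 bp in cKO 2, all more than 100 kb downstream. Of the 18 intergenic regions nearest to Plk2, 6 were WT-only and 4 shared, so the WT-only ones outnumbered the 3 cKO-only ones. Its gene body had H3K36me3 over 71.0% and 70.0% in WT and 88.1% and 89.7% in cKO, so the groups did not overlap. Gadd45a, Gadd45b and Gadd45g encode stress sensors of the growth arrest response. The Gadd45b regions lay 2576 to 12922 bp downstream of the TSS, with 1564, 644 and 501 bp in cKO 1 and 501 bp each in cKO 2, and all 3 overlapped H3.3-HA regions in both H3.3-HA libraries. The Gadd45g region lay 2598 bp upstream with 638 and 501 bp, and the Gadd45a region 15355 bp downstream with 501 and 637 bp. Near Atf3, the stress-induced transcription factor gene, 661 and 626 bp were called. Near Sesn2, a p53 target that restrains mTORC1, 501 and 1360 bp were called.

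Interferon-induced genes were nearest to 7 regions (0.836%, 0.406 to 1.72), against 0.304% of WT-only, 0.705% of shared and 0.465% of all intergenic regions. The interval held the shares of shared and of all intergenic regions. The count rested on the cKO libraries: it was 21 without cKO 1 and 17 without cKO 2, where the regions to count from were also more numerous. The genes included Cmpk2, Ifit2, Oas1g (2 regions), Oas3 and Slfn1. The regions lay close to their genes, at 1557 to 7905 bp from the TSS. The Slfn1 region, beside a Schlafen gene linked to growth control, had 974 bp in cKO 1 and 1764 bp in cKO 2. The Cmpk2 region had 1327 and 948 bp and lay 1557 bp upstream of this nucleotide kinase gene. The regions of Oas1g and Oas3, which encode sensors of double-stranded RNA, had 876 and 753 bp (Oas1g) and 691 bp (Oas3) in cKO 1 and 1223, 752 and 959 bp in cKO 2. The Ifit2 region had 770 and 798 bp.

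H3K36me3 over the bodies of these genes separated the genotypes at Oas3, Cmpk2, Oas1g and Ifit2. Over Oas3 the coverage was 49.6% and 54.7% in WT and 84.9% and 94.5% in cKO. Over Cmpk2 it was 40.4% and 56.3% in WT and 71.8% and 73.0% in cKO. Over Oas1g it was 47.3% and 53.8% in WT and 74.1% and 89.4% in cKO. Ifit2, which encodes an antiviral RNA-binding protein, had 4.20% and 5.69% in WT and 19% and 23.8% in cKO, and its promoter had an H3K27ac region in the cKO libraries alone. In each of these 4 genes both cKO values were at least 10 percentage points above both WT values, a margin that 2.64% of the 11156 protein-coding genes with any H3K36me3 region met in this direction. Slfn1 had no H3K36me3 region in any library.

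The cytokine list gave 6 regions (0.717%, against 0.736% of all intergenic regions), assigned to Cxcl2, Csf2, Il10, Lif and Ptgs2. The Il10 region lay 18314 bp downstream of this anti-inflammatory cytokine gene with 810 bp in cKO 1 and 1219 bp in cKO 2, and H3K36me3 covered 25.5% and 22.1% of the gene body in WT and 62.9% and 64.9% in cKO. The Lif region had 501 and 1901 bp. The Ptgs2 region, near the cyclooxygenase-2 gene, had 755 and 633 bp, while H3K36me3 covered 28.2% and 18.3% of the gene body in WT and 0% and 6.11% in cKO. The Csf2 region had 501 and 501 bp, 12589 bp from the TSS of this colony-stimulating factor gene. The macrophage list also gave 6 regions (0.717%, against 0.789% of all intergenic regions), 2 each at Cebpb and Irf4 and 1 each at Cd14 and Klf4. Cebpb, Irf4 and Klf4 encode transcription factors of myeloid cells and Cd14 a co-receptor for lipopolysaccharide. The Irf4 regions had 1566 and 693 bp in cKO 1 and 1313 and 501 bp in cKO 2, while H3K36me3 covered 36.8% and 51.1% of the Irf4 body in WT and 0% and 8.47% in cKO. The Cebpb regions had 871 and 501 bp in cKO 1 and 1439 and 646 bp in cKO 2, with H3K36me3 over 14.8% and 11.9% of the gene in cKO and 0% in WT. The lipid list gave 2 regions (0.239%, against 0.347%), both upstream of Abca1, the cholesterol efflux transporter gene, with 747 to 988 bp called. The shares of these 3 lists lay near those of all intergenic regions. In the study's RNA lists, given below, Ptgs2 and Lif were higher in cKO on day 7. Cebpb was higher and Abca1 lower in cKO on day 8. At Ptgs2 the RNA and H3K36me3 thus went opposite ways, as did the RNA and the cKO-only H3K27ac regions at Abca1.

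The gene lists of RNA change were taken as symbols from the RNA-seq of the same study, which used separate libraries of cKO and WT BMDMs on day 7 of culture. Of the 341 protein-coding genes higher in cKO, 46 were nearest to a region, and they accounted for 64 of the 837 regions (7.65%, 6.03 to 9.65). The same list was nearest to 2.82% of WT-only, 3.58% of shared and 3.72% of all intergenic regions. The 228 genes lower in cKO were nearest to 12 regions (1.43%, 0.822 to 2.49), against 2.82% of WT-only, 2.12% of shared and 2.27% of all intergenic regions. Counted once per gene, the higher genes made up 6.52% of the 706 nearest genes and 2.56% of the 1600 nearest genes of WT-only regions. With the lists of day 8 the regions numbered 74 (8.84%) for the higher and 18 (2.15%) for the lower genes, against 5.13% and 3.63% of all intergenic regions. With the day 7 list, the share for the higher genes was above that of all intergenic regions at every distance from the TSS. It was 6.28% against 3.31% up to 10 kb, 6.53% against 3.29% from 10 to 50 kb and 10.5% against 4.39% beyond 50 kb. The count of 64 was 171 without cKO 1 and 121 without cKO 2, and that of 12 was 27 without WT 1, 45 without cKO 1 and 38 without cKO 2. The share for the higher genes ran from 5.83% to 8.23% under every other choice of regions, against 2.56% to 2.93% of WT-only regions. These are counts over regions of the same 4 libraries and carry no test over samples.

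**Figure D3:**
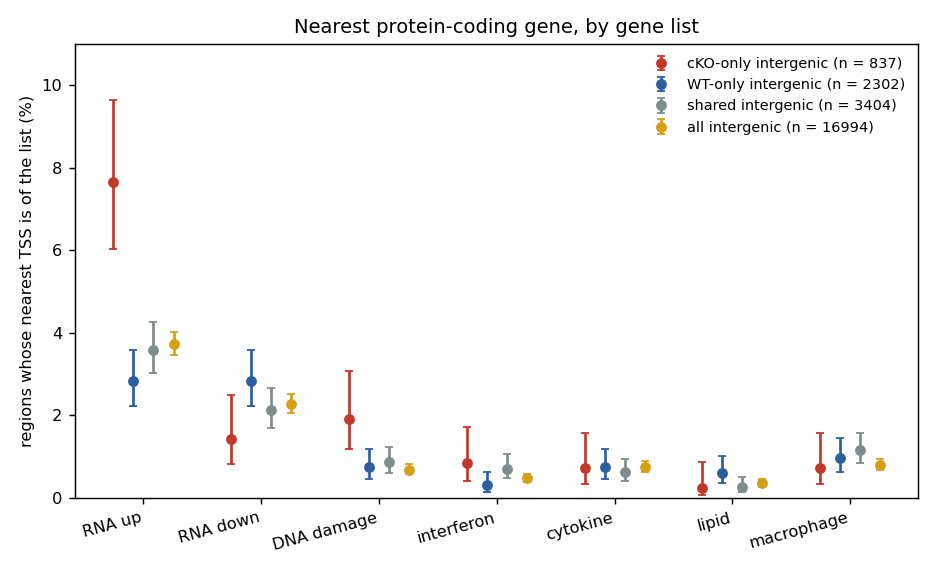
Share of regions (vertical, %) whose nearest protein-coding TSS belongs to each gene list (horizontal), for cKO-only, WT-only, shared and all intergenic regions; bars are Wilson 95% intervals of counting error. For the genes higher in cKO RNA the cKO-only point stands at 7.65% and the other 3 between 2.82% and 3.72%.

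The longest regions near genes higher in cKO RNA and within 50 kb of them were those of B4galt5 (above) and Atp1b3, a sodium pump subunit gene, with 2615 bp in cKO 1 and 1632 bp in cKO 2. The region of Dusp1, the phosphatase gene that ends MAP kinase signalling, had 1595 and 2935 bp. The region of Tnfsf8, which encodes the CD30 ligand, had 1376 and 2640 bp. The regions of Pou3f1, Plac8 and Gcnt2 had 1437 and 1313 bp, 1470 and 1352 bp, and 1097 and 1367 bp. AA467197 had 3 regions, of which the longest had 1621 and 1478 bp. Pmaip1, given above, had 2 of the 10 longest. In each of these regions both cKO libraries called more than the minimum length, which follows from their choice as the longest by the same calls. Atp1b3 also had H3K36me3 over 51.7% and 70.5% of its body in WT and 90.3% and 95.4% in cKO.

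At the starts of the 706 nearest genes, an H3K27ac region lay within 1 kb of a TSS in all 4 libraries for 313 genes (44.3%) and in no library for 214 (30.3%). It was present in both cKO and neither WT library for 53 (7.51%) and in both WT and neither cKO for 14 (1.98%). These values come from the lists that chose the regions and are given as a description. For the nearest genes of WT-only regions the last 2 shares were 3.50% and 3.44%, and for those of shared regions 4.29% and 2.68%. Among the 46 nearest genes with higher RNA, 10 (21.7%) had a promoter region in the cKO libraries only, 15 had one in all 4 libraries and 15 in none. A promoter region in the cKO libraries only was found for 9 of 74 higher-RNA genes nearest to shared regions (12.2%) and for 2 of 41 nearest to WT-only regions (4.88%).

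H3.3 was present at a part of the regions in cells that have it. H3.3-HA regions overlapped 379 of the 837 (45.3%) in the first library and 339 (40.5%) in the second. Both libraries overlapped 249 (29.7%, 26.8 to 32.9) and neither overlapped 368 (44.0%). With 6951296 and 5365319 tags the H3.3-HA libraries were shallower than those of H3K27ac, and H3.3 made from H3f3a carries no tag. A region without an H3.3-HA call may thus still hold H3.3. In both libraries the shares were below those of WT-only regions (58.6% and 46.7%), of shared regions (81.1% and 73.9%) and of all intergenic regions (48.8% and 42.9%). Overlap in both libraries was found for 38.7% of WT-only, 67.5% of shared and 34.8% of all intergenic regions. In windows of 1 kb at the region centre the shares were 27.7% (cKO-only), 38.4% (WT-only) and 55.8% (shared), an alternative added after the data were seen. By the rule, cKO-only regions had no H3K27ac call in WT, while WT-only and shared regions had one in both WT libraries. H3.3-HA was read in cells with an intact H3.3 supply. The part of this choice in the lower H3.3-HA shares was not tested.

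**Figure D4:**
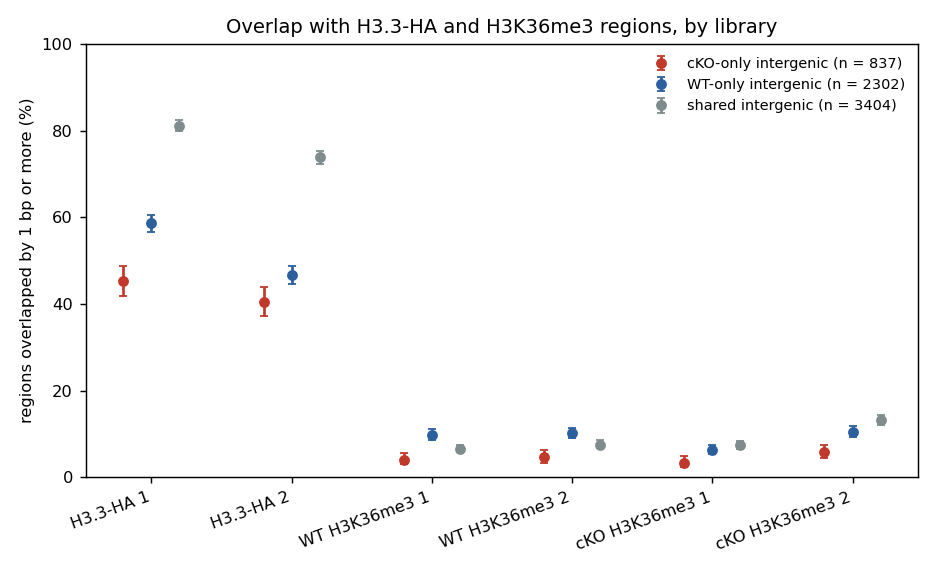
Share of cKO-only, WT-only and shared intergenic regions (vertical, %) overlapped by at least 1 bp of a called region in each H3.3-HA and H3K36me3 library (horizontal); bars are Wilson 95% intervals of counting error. The cKO-only points are the lowest in both H3.3-HA libraries, at 45.3% and 40.5%, and lie between 3.35% and 5.73% for H3K36me3.

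The overlap with H3.3-HA differed with region width. Among the regions under 800 bp, 67 of 349 (19.2%) had H3.3-HA in both libraries, against 27.6% of WT-only and 16.2% of all intergenic regions of this width. From 800 to 1500 bp the share was 31.9%, against 39.1% of WT-only and 37.9% of all intergenic regions. From 1500 to 3000 bp it was 40.7%, against 58.2% and 58.4%. Of the 24 regions of 3000 bp or more, 22 had it (91.7%, 74.2 to 97.7), and the 2 without it were assigned to Ccny and Smox. At this width it was found for 77.4% of 31 WT-only, 86.5% of shared and 85.4% of all intergenic regions. The cKO-only interval held all of these shares. The cKO-only shares were thus below the WT-only ones in the 3 narrower classes. Under 800 bp the cKO-only share was above that of all intergenic regions, but its interval (15.4 to 23.7) held that share. From 800 to 1500 bp and in the widest class the intervals of cKO-only and WT-only regions overlapped. All 4 regions longest in both cKO libraries, at Cxcl2, Mdm1, B4galt5 and Trdmt1, carried H3.3-HA in both libraries, with 501 to 2996 bp of H3.3-HA. Of the 64 regions near genes with higher RNA, 21 (32.8%) had H3.3-HA in both libraries, and of the other 773 regions 29.5%.

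**Figure D5:**
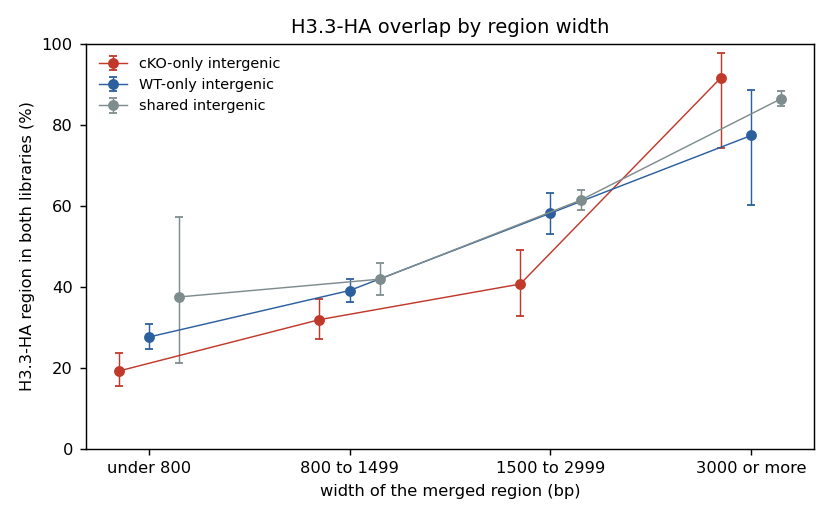
Share of regions with an H3.3-HA region in both H3.3-HA libraries (vertical, %) by width of the merged H3K27ac region (horizontal, bp) for cKO-only, WT-only and shared intergenic regions; bars are Wilson 95% intervals of counting error. The cKO-only share rises from 19.2% in the narrowest to 91.7% in the widest class, which holds 24 regions.

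H3K36me3 was rare at the regions in either genotype. It overlapped 4.06% and 4.54% of the 837 in WT and 3.35% and 5.73% in cKO. WT averaged 4.30% ± 0.338 (SD, n = 2) and cKO 4.54% ± 1.69 (SD, n = 2). Their difference, 0.239 percentage points, did not exceed the SD among cKO libraries (p = 1.00, two-sided exact permutation test). Without the cKO H3K36me3 2 library it was -0.956. The smallest p that 2 against 2 libraries allow is 0.333, so this design cannot reach 0.05. No H3K36me3 region was present in any library at 777 regions (92.8%), against 86.6% of WT-only and 85.4% of shared regions. In both cKO and neither WT library, H3K36me3 was called at 5 regions (0.597%), where 0.759% of all intergenic merged regions had this pattern. The reverse was seen at 3 regions (0.358%), with 1.11% of all intergenic merged regions. Neither count stood above its background.

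The 5 regions with H3K36me3 in cKO only were assigned to Ubl3, Ccdc97, Rmc1, Anxa5 and Rab10. The Ubl3 region lay 186598 bp upstream at chr5:148738453-148740320, with H3K27ac over 1868 bp in cKO 1 and 1447 bp in cKO 2 and H3K36me3 over 1141 and 1083 bp. The Ccdc97 region had 501 and 1234 bp of H3K36me3, and the Rmc1 region 645 and 645 bp. The Anxa5 region, downstream of the gene of the phosphatidylserine-binding protein annexin A5, had 729 and 501 bp. The Rab10 region had 501 and 67 bp and lay inside the antisense gene Rab10os. H3K36me3 was thus even between the cKO libraries at Ubl3 and Rmc1 and uneven at Ccdc97 and Rab10.

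Over the bodies of the 706 nearest genes, H3K36me3 regions covered on average 28.4% and 29.9% in WT and 20.4% and 32.4% in cKO. WT averaged 29.2% ± 1.01 (SD, n = 2) and cKO 26.4% ± 8.42 (SD, n = 2). cKO minus WT was thus -2.76 percentage points, with p = 1.00 in the two-sided exact permutation test. The WT values lay between the 2 cKO values, and without the cKO 1 library the difference was 3.20 points in the other direction. Among the 46 nearest genes with higher RNA, the coverage was 19.6% and 19.1% in WT and 19.1% and 29.2% in cKO, and this difference did not exceed the spread of the cKO libraries either (p = 0.667, exact permutation test, n = 2 each).

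Some single genes separated by more than this, with no test at this number of libraries. H3K36me3 was present in at least 1 library at 509 of the nearest genes, and 32 of these (6.29%) had at least 10 percentage points more coverage in both cKO libraries than in either WT library. Of all protein-coding genes with any H3K36me3 region, 2.64% met this criterion. For the nearest genes of WT-only and of shared regions the share was 4.34% and 5.83%. Lower coverage by the same margin was found for 52 nearest genes (10.2%), against 10.9% of all genes. Of the 31 nearest genes with higher RNA and any H3K36me3, 5 were higher and 2 lower by this margin. The margin was set after the data were seen. Beside Irf2bp2, Plk2, Il10, Cebpb, Atp1b3 and the interferon-induced genes above, the 32 included Klf6, Rgs1, Ly6a, Tlr7, C3ar1 and Hmgb2, named after their values were seen. Klf6, a transcription factor gene induced by injury, had 0% and 7.12% in WT and 82.7% and 83.4% in cKO. Rgs1, which limits chemokine receptor signalling, had 0% in both WT libraries and 79.2% and 92.3% in cKO. Tlr7, the endosomal sensor of single-stranded RNA, had 40.8% and 38.9% in WT and 72.4% and 93.2% in cKO. The lower 52 included Thbs1, Irf4, Cd14, Ptgs2, Cd83 and Pdcd4. Cd83, a maturation marker gene of antigen-presenting cells, had 60.4% and 56.9% in WT and 25.2% and 35.2% in cKO.

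Motif content was read in the same way in every intergenic region, on both strands, in windows centred on the merged region. In the central 300 bp, AP-1 was matched in 134 regions (16.0%, 13.7 to 18.6), against 17.5% of WT-only, 16.3% of shared and 15.8% of all intergenic windows. PU.1 was matched in 6.33%, against 7.21%, 6.49% and 5.97% in the same order. ISRE was matched in 10.9% (8.94 to 13.2), against 13.7%, 13.7% and 12.8%. C/EBP was matched in 16.5%, against 14.6%, 14.1% and 14.7%, and NF-kB in 1.55%, against 1.43%, 1.56% and 1.41%. For each of these 5 motifs the counting interval of the cKO-only share held the share of all intergenic windows. The cyclic AMP response element was matched in 6 windows (0.717%, 0.329 to 1.56), against 0.271% of all intergenic windows. They were assigned to B4galt4, Fasl, Olig3, Plk2, Trib1 and Xylt1, named after their values were seen. Of the 7 regions beside interferon-induced genes, 3 held a C/EBP match in the central window, at Oas3 and at both Oas1g regions. The DNA around this match was nearly the same at Oas3 and at the Oas1g region closer to the TSS, so these matches are not independent. No ISRE match lay in the central window at Slfn1, Cmpk2, Ifit2, Oas3 or either Oas1g region. The ISRE match shown for Oas3 lay in the window of the part called in both cKO libraries.

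The regions were somewhat richer in CpG than WT-only and all intergenic regions, and than shared regions in the mean only. The central 300 bp held on average 4.07 CpG, against 2.81 in WT-only, 3.65 in shared and 3.0 in all intergenic windows. The median was 3 CpG in cKO-only and in shared windows, and 2 in WT-only and in all intergenic windows. Windows with 10 or more CpG numbered 66 (7.89%, 6.25 to 9.91), against 1.91% of WT-only, 4.85% of shared and 3.14% of all intergenic regions. Of these 66, 13 lay within 1 kb of the TSS of an annotated long non-coding RNA (19.7%), against 18.2% of all intergenic, 23.6% of shared and 11.4% of WT-only windows with as many CpG. The highest count was 42, in the region near Nacc2, followed by 37 near Hpcal1 and 33 near Gm21119, named after their values were seen. At the Nacc2 region, inside Tmem250-ps, annotated as a lincRNA, 1958 bp were called in cKO 1 and 2232 bp in cKO 2. Soft-masked repeats made up a median of 18% of the regions, against 17.9% of WT-only, 22.3% of shared and 19.2% of all intergenic regions, and repeats filled more than 50% of 49 regions (5.85%, against 6.57% of all intergenic regions). At 49 regions an exact run of 60 bases recurred in another member. The pair near Gm31371 and Gm21119 shared 129 such runs and the pair near Ly6a and Ly6g 67, while every other pair shared 18 or fewer. Near-identical copies such as these pairs can share reads, so their calls are uncertain.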

How the data were processed

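CUT&RUN was performed on BMDMs in 15 samples, of which 10 libraries gave a region list and 5 IgG samples served as controls only. Per the file headers and the study's methods, the authors aligned reads to mm10 with Bowtie2 and called regions per library with HOMER in histone style, with a peak size of 500 bp, 4-fold over IgG and p of 1e-04. The deposited files hold other values only as start and end positions, and the deposited score is constant, so presence and length were used and signal height was not analysed here. Depth is the tag total in each header.

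Lists were merged on 20 chromosomes, with GENCODE M21 gene models, an overlap of at least 1 bp and a TSS limit of 1000 bp. Sequences were read from the RefSeq genome of GRCm38. Groups were compared with two-sided exact permutation tests (2 against 2 libraries, smallest p 0.333), and shares carry Wilson 95% intervals. Regions were named when they were among the 10 longest called in both cKO libraries, nearest to an interferon, DNA damage, cytokine, lipid or macrophage list gene, 1 of 3 or more regions of a gene, marked by H3K36me3 in cKO only, among the 10 longest within 50 kb of genes with higher RNA, or next to the TSS limit. The regions and lists were chosen with earlier results of these data known. RNA lists are the study's own symbols, used without values, and entries without a gene symbol or with a symbol of no protein-coding gene were left out. Scripts ran in Python 3.11.15 with numpy 2.4.6 and scipy 1.17.1 and were tested on simulated data. A member that the naming rule covers is not reported here.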

Additional observations from a re-analysis of the deposited data

How the results depend on the processing

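Among the recomputed values, 130 stayed on the same side and close to the main value, 50 moved further and 5 changed sign. Close is no error limit for counts, which carry no interval: 1207 members with lists of equal length, against 837, were still classed as close. The lists carry no signal height, so a region just under the caller's threshold cannot be told from one without signal. The cause of each change was not tested. With called regions of at least 1 kb there were 371 members, with 49.1% under H3.3-HA in both libraries, 1342 bp called in both cKO libraries, 1 interferon, 30 higher-RNA and 3 lower-RNA members, AP-1 in 21.6%, ISRE in 14.3% and repeats at 21.7%. With lists of equal length these were 33.1% H3.3-HA, 627 bp, 11 interferon and 19 lower-RNA members and 19.5% repeats. Merging regions within 1 kb gave 4 interferon members and an H3K36me3 difference of -0.146 points. Over 5 kb from a TSS the median distance was 29357 bp with 2 interferon members.

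H3.3-HA in at least 1 library was found at 56.0%, over 50% of the member at 14.8% and within 1 kb at 38.2%. Any TSS within 100 kb gave 16 interferon and 36 lower-RNA members, and a nearest TSS within 50 kb gave 38 higher-RNA members. In whole regions AP-1 was matched in 39.3%, PU.1 in 16.7% and ISRE in 33.1%. Without soft-masked bases, a setting chosen after seeing the data, PU.1 was matched in 4.42% and ISRE in 6.69%. Repeats in the central 300 bp were 13.7%.

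Leaving out 1 library at a time gave 1152 to 2935 members, 20.0% to 45.3% with H3.3-HA, 501 to 596 bp called in both, a median distance of 24904 to 28356 bp, 8 to 21 interferon, 77 to 171 higher-RNA and 17 to 45 lower-RNA members, and repeats of 16.4% to 19%. AP-1 ran from 13.9% to 17%, PU.1 from 5.33% to 6.81% and ISRE from 10.7% to 12.1%. The H3K36me3 difference at members ran from -0.956 to 1.43 points, with -0.528 without cKO H3K27ac 1 and -0.266 without cKO H3K27ac 2. That over gene bodies ran from -8.71 to 3.20 points. With the replicate block the differences were 0.239 and -2.76 points, each with p = 1.00 in the exact sign-flip permutation test. The numbers were not shown to pair the libraries, since the replicate differences correlated at 0.0749 for H3K36me3 over genes and 0.0251 for H3K27ac over regions.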
